A study of Homo sapiens with 4 samples.

Results

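The MYC network is a set of transcription factors that compete for one shared partner, MAX. The members described here are the 10 genes MYC, MYCN and MYCL (activators), MAX (the shared partner), and MXD1, MXD3, MXD4, MXI1, MNT and MGA (antagonists of the MXD type), found by symbol among the 38972 rows of the deposited expression table. All 10 were found. The set was chosen by family membership and with results of this same comparison in view, above all the lower MYC level, so the TPM values that prompted the choice are those described below and the members' own differences between groups carry no test. RNA was sequenced from HEK293T, an established human embryonic kidney cell line that carries adenoviral genes and the SV40 large T antigen, in 4 libraries. The sample titles mark 2 libraries as overexpressing the Flag epitope tag alone, the control, and 2 as overexpressing RNase H1, an enzyme that cuts RNA paired with DNA. The labels give neither the promoter or vector used nor the time after its introduction, and do not say whether replicates were separate cultures, so the spread between replicates may be technical. The study maps R-loops, in which RNA pairs with one strand of the DNA duplex, and its RNA comparison sets gene expression with the overexpressed enzyme against that with the tag.

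MYC family proteins carry a basic helix-loop-helix leucine zipper and bind DNA only as a pair with MAX. The MYC-MAX pair binds the E-box, the sequence CACGTG, and recruits histone acetyltransferases, raising transcription of genes for ribosome synthesis, nucleotide synthesis, glycolysis and growth. MXD proteins, MXI1 and MNT take MAX into a competing pair that binds the same sequence and recruits the SIN3-histone deacetylase corepressor. MGA, the largest member, also pairs with MAX and belongs to a variant Polycomb complex. MYC messenger RNA and protein are both short-lived and MYC is an immediate early gene of growth factor signalling, whereas MAX is long-lived and made at a steady level.

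Values are TPM, each transcript's share of its library after correction for transcript length, so levels can be set side by side between genes. Fold changes are differences of log2(TPM + 1) with standard errors (SE) from limma, a linear model with moderated variances, fitted to the 15651 genes whose values averaged 1 TPM or more. A negative sign means lower in the libraries labelled RNase H1. The added 1 shrinks the fold changes of scarce genes. A call is an adjusted p under 0.05 over all tested genes. In the gene lists below 53 genes were called, and 0 of them kept the call when any 1 of the 4 libraries was left out, with no filter on low values or with variances that ignore the intensity trend; other losses are given beside each gene named with values. Library columns summed to between 998901 and 998955 TPM, and read depth cannot be recovered from TPM. RNASEH1, the gene meant to be overexpressed, stood at 32.09 and 32.8 TPM in the Flag libraries and at 29.93 and 29.67 TPM in the libraries labelled RNase H1, so its measured level does not bear out the labels and every direction below rests on the labels alone. Of 12 markers expected of HEK293 cells and kidney progenitors, 11 averaged at least 1 TPM. The 12 summed to 1181 to 1197 TPM in the Flag libraries and 1283 to 1307 TPM in the libraries labelled RNase H1. Most of that sum was VIM, at 867 and 888 TPM against 979 and 965 TPM. The markers did not all go the same way, since KRT8 and KRT18 were higher in the libraries labelled RNase H1, and NEFM and NEFL lower. Markers of blood, endothelium and fibroblasts summed to at most 6.01, 1.43 and 20.94 TPM in any library. HBB was at 0 throughout and PTPRC, the pan-leukocyte marker, was at 0 in 3 libraries and at 0.02 TPM in the other. Of 8 markers of carcinoma epithelium 3 averaged at least 1 TPM and KRT7 was at 0 in all libraries, and their sum was 5.19 to 6.39 TPM against 7.08 to 8.76 TPM. The part of these marker differences in the results below was not tested.

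MYC was the most abundant member in the Flag libraries and had the largest difference of the 10. MYC (ENSG00000136997, chromosome 8, 127735434 to 127741434, plus strand; all positions are GRCh38, from GENCODE release 29) was listed at 80.01 and 77.06 TPM in the Flag libraries and at 31.3 and 29.37 TPM in the libraries labelled RNase H1. The groups were far apart relative to their spread, at 78.5 ± 2.09 against 30.3 ± 1.36 TPM (SD, n = 2), a 2.59-fold lower level. On the log2 scale the difference was -1.34 ± 0.06 (SE), with a 95% interval from -1.50 to -1.19. In bulk RNA, less transcript per cell and fewer cells that express the gene cannot be told apart. Only 21 of the 15651 tested genes had a more negative log2 fold change. Ordered by mean level among all tested genes, MYC stood at percentile 86.8 in the Flag group and at percentile 66.2 in the RNase H1 group.

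The other activators were scarce in both groups. MYCN (chromosome 2, 15940564 to 15947007, plus strand), the family member of embryonic neural tissue, was listed at 1.96 and 1.16 TPM in the Flag libraries and at 1.95 and 2.01 TPM in the libraries labelled RNase H1. Its groups overlapped and the interval of its log2 fold change, from -0.30 to 0.77, was the widest of the 10. MYCL (chromosome 1, 39895426 to 39902256, minus strand), first known from lung cancer, stood at 5.24 and 5.54 TPM against 5.16 and 4.77 TPM. Its RNase H1 values lay just below its Flag values, with a log2 fold change of -0.10 ± 0.12 (SE). Neither gene was higher by an amount near the MYC difference, since the 3 activators summed to 87.21 and 83.76 TPM in the Flag libraries and to 38.41 and 36.15 TPM in the libraries labelled RNase H1. MYC made up 91.9% ± 0.182 of the activator sum in the Flag group and 81.4% ± 0.173 in the RNase H1 group (SD, n = 2).

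**Figure D1:**
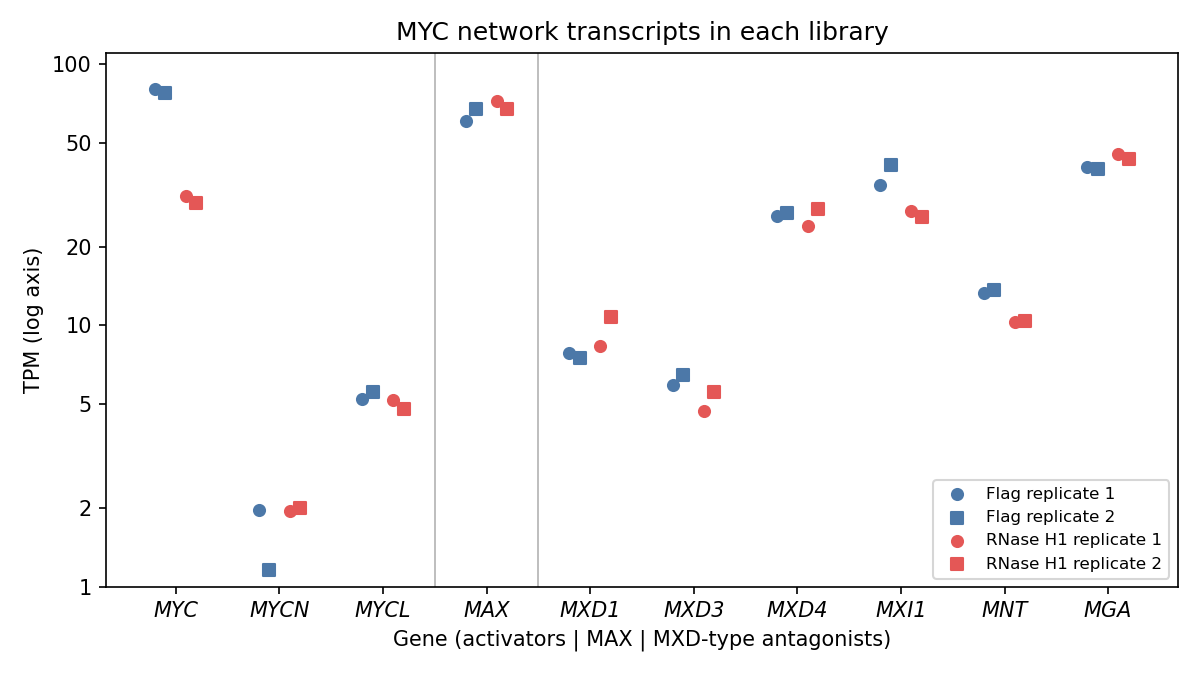
TPM of the 10 network genes in each of the 4 libraries, on a log axis, with activators, MAX and antagonists separated by vertical lines; circles and squares are replicates 1 and 2. MYC sits near 80 TPM in the Flag libraries and near 30 TPM in the libraries labelled RNase H1, and MAX overlaps between groups.

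MAX, the obligate partner, overlapped between the groups. MAX (chromosome 14, 65006174 to 65102695, minus strand) stood at 60.3 and 67.11 TPM in the Flag libraries and at 72.12 and 67.03 TPM in the libraries labelled RNase H1, 1 of which lay within the Flag range. Its log2 fold change was 0.13 ± 0.07 (SE), with an interval from -0.05 to 0.30. MYC transcripts outnumbered those of MAX in both Flag libraries, at 1.33 and 1.15 per MAX transcript, and were fewer in both libraries labelled RNase H1, at 0.434 and 0.438. The order of levels differed between the groups. By group mean, MYC stood above MAX and MAX above MGA in the Flag group, and MAX stood above MGA and MGA above MYC in the RNase H1 group, with no overlap between these neighbours in either group. FNTB, a gene on the opposite strand that overlaps MAX, was listed at 12.91 to 17.44 TPM. The authors' use of strand is not given in the sources used here, so some reads of either gene could be counted for the other.

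Among the antagonists, MXI1, MNT and MXD3 were lower without overlap between groups, as were 29.4% of all tested genes. MXI1 (chromosome 10, 110207605 to 110287365, plus strand), an MXD family repressor, stood at 34.28 and 40.96 TPM in the Flag libraries and at 27.48 and 25.86 TPM in the libraries labelled RNase H1. The Flag libraries differed from each other by more than the libraries labelled RNase H1 did, and the means were 37.6 ± 4.72 and 26.7 ± 1.15 TPM (SD, n = 2). The log2 fold change was -0.48 ± 0.10 (SE), with an interval from -0.72 to -0.24. MNT (chromosome 17, 2384060 to 2401118, minus strand), the broadly expressed antagonist thought to set the baseline against which MYC acts, stood at 13.27 and 13.64 TPM against 10.34 and 10.4 TPM. Its replicates were close together, at 13.5 ± 0.262 and 10.4 ± 0.0424 TPM (SD, n = 2), and its log2 fold change was -0.35 ± 0.09 (SE). MNT was not called. MNT transcripts are rich in G and C, at 61.4% in the longest model, and after correction for GC content the difference was -0.26. ENSG00000262456, an antisense gene inside MNT, was listed at 2.46 and 2.49 TPM in the Flag libraries and at 1.21 and 0.37 TPM in the libraries labelled RNase H1, so it could share reads with MNT.

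MXD1 and MGA were the antagonists with higher values. MGA (chromosome 15, 41621224 to 41773081, plus strand) stood at 40.28 and 39.62 TPM in the Flag libraries and at 45.25 and 43.39 TPM in the libraries labelled RNase H1. The groups did not overlap, where 31.3% of all tested genes were higher without overlap. The log2 fold change was small, at 0.15 ± 0.06 (SE), and 0.09 after correction for GC content. MXD1 (chromosome 2, 69897688 to 69942945, plus strand), a repressor induced when cells differentiate, stood at 7.81 and 7.52 TPM against 8.33 and 10.72 TPM. One library labelled RNase H1 carried most of that difference, and leaving out a library in turn moved the log2 fold change of 0.27 between 0.11 and 0.44. SNRNP27, which overlaps MXD1 on the same strand, was listed at 54.21 to 65.49 TPM.

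MXD4 and MXD3 completed the antagonists. MXD4 (chromosome 4, 2247432 to 2262294, minus strand) stood at 26.24 and 26.96 TPM in the Flag libraries and at 23.96 and 27.8 TPM in the libraries labelled RNase H1. The values overlapped, and the sign of its log2 fold change of -0.04 depended on the setting, with 2 of 13 alternatives positive. MXD3 (chromosome 5, 177301461 to 177312757, minus strand), which is known from proliferating cells, stood at 5.92 and 6.45 TPM against 4.69 and 5.57 TPM, with a log2 fold change of -0.23 ± 0.13 (SE). Its groups did not overlap, but PRELID1, which lies inside it on the opposite strand and was listed at 297 to 326 TPM, and RAB24, which overlaps its end at 30.4 to 34.8 TPM, make the value uncertain.

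**Figure D2:**
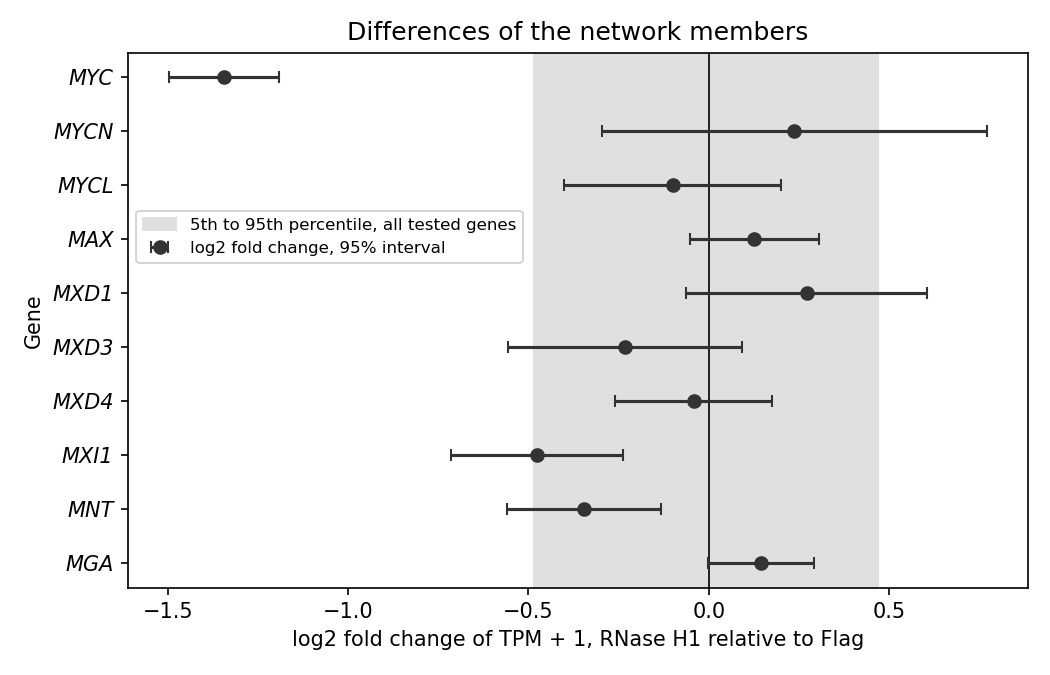
Log2 fold change of TPM + 1 for each member, libraries labelled RNase H1 relative to Flag, with the 95% interval from limma; the grey band spans the 5th to the 95th percentile of all tested genes. MYC lies far to the left of the band at -1.34, the point of MXI1 lies just inside its lower edge, and the points of the other members lie within it. The intervals of MXI1, MNT, MXD3, MXD1 and MYCN reach beyond the band.

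All 10 members passed the filter on low values, and 2 were called lower (MYC and MXI1), 0 higher and 8 not called, where 11.8% of all tested genes were called in either direction and 5.54% lower. Because this comparison chose the members, nothing is read from that count. MYC was called without Flag replicate 2 and in no other fit that left out a library, and MXI1 in none of them. By groups that do not overlap, 5 members were lower, 2 were higher and 3 overlapped, where 60.7% of all tested genes did not overlap. The middle 90% of tested genes lay between -0.48 and 0.47, so that MXI1 sat just inside the lower edge, at percentile 5.24, and MNT at percentile 10.3. The median over the members was -0.07, beside 0.00 over all tested genes.

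Summed by role, the antagonists differed far less than the activators. The 6 antagonists summed to 127.8 and 135.15 TPM in the Flag libraries and to 120.05 and 123.74 TPM in the libraries labelled RNase H1. These sums did not overlap, but the difference of the means, at 1.08-fold, was small beside the 2.29-fold of the activators. The activator sums averaged 85.5 and 37.3 TPM, of which MYC alone made up 78.5 and 30.3 TPM. The activator difference, and the ratio below, thus mostly restate the MYC difference that prompted the choice of members. Activator transcripts per antagonist transcript came to 0.682 and 0.620 in the Flag libraries and to 0.320 and 0.292 in the libraries labelled RNase H1. On the log2 scale this ratio was lower by 1.09, from -0.62 ± 0.0982 to -1.71 ± 0.0927 (SD, n = 2). The make-up of the antagonists also differed, with MGA at 30.4% ± 1.56 of their sum in the Flag group and 36.4% ± 1.86 in the RNase H1 group, and MXI1 at 28.6% ± 2.46 and 21.9% ± 1.41 (SD, n = 2). In the Flag group MXI1 overlapped MGA in level and stood above MXD4, and in the RNase H1 group the values of MXD4 spanned those of MXI1. MNT overlapped MXD1, and MXD3 overlapped MYCL, in the RNase H1 group and not in the Flag group. These are shares of transcripts, and protein levels were not measured.

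**Figure D3:**
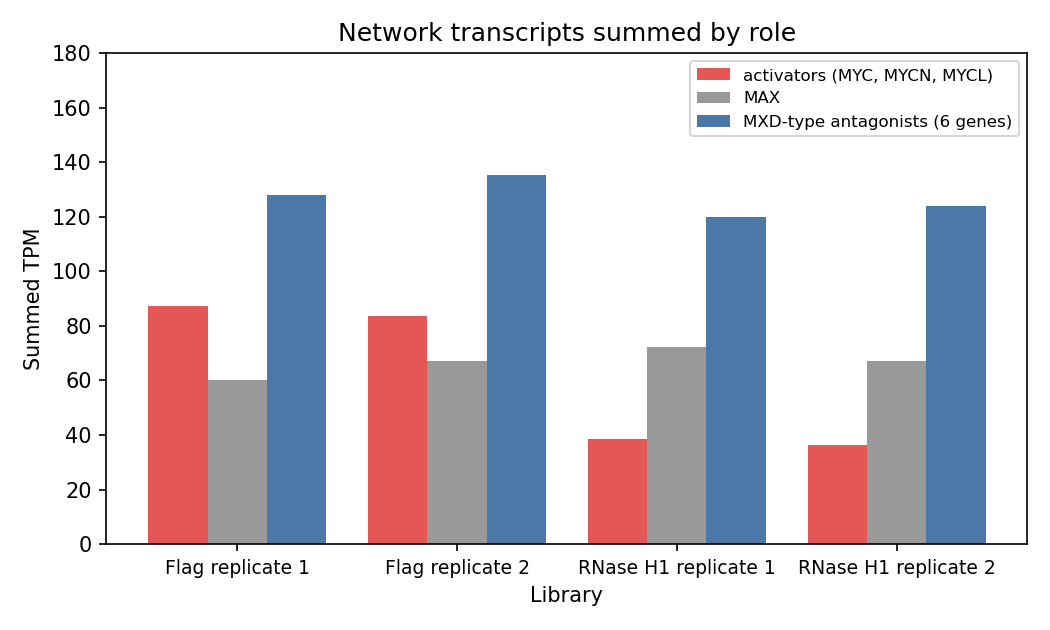
Summed TPM of the activators, MAX and the 6 antagonists in each library (bars from 0). The activator bar is 84 to 87 TPM in the Flag libraries and 36 to 38 TPM in the libraries labelled RNase H1, while the antagonist bar stays between 120 and 135 TPM in all 4. Most of the activator bar is MYC.

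The 5 genes outside the network whose profiles lay nearest to that of MYC were ABCA2, IRS4, COMTD1, ENSG00000287064 and MLXIPL, in that order. Likeness was the Euclidean distance between log2(TPM + 1) values centred on each gene's mean over the 4 libraries, among genes of at least 5 TPM. ABCA2, a lipid transporter, was nearest at a distance of 0.154, with 23.72 and 25.04 TPM in the Flag libraries against 10.12 and 9.65 TPM. IRS4, an insulin receptor substrate, followed at 0.279, and MLXIPL, at 0.325, belongs to the wider network of MAX-like proteins. Profiles over 4 libraries in 2 groups are alike mainly where the group difference is alike, and these genes were picked for it.

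MLXIPL encodes ChREBP, a glucose-responsive activator that pairs with MLX, the MAX-like protein, and binds sites built from E-boxes. It fell from 14.5 ± 1.12 to 6.59 ± 0.156 TPM (SD, n = 2), with a log2 fold change of -1.03 ± 0.10 (SE, limma adjusted p = 0.00903). It was the only call among the 5 genes of this branch, with 0 higher, 1 lower and 4 not called. MLX itself was at 40.0 and 43.2 TPM by group mean (log2 0.11 ± 0.06, SE) and MLXIP, the paralog known as MondoA, at 19.99 and 19.3 TPM (-0.05 ± 0.08). The glucose-responsive arrestins ARRDC4 and TXNIP, classical outputs of MondoA, differed by -0.28 ± 0.09 and 0.19 ± 0.06, and neither was called. Among 10 tested factors of other families that bind E-boxes, 1 fell, 0 rose and 9 had no call, where 11.8% of all tested genes were called. The call was TFAP4, itself known as a gene that MYC activates, which fell from 18.3 ± 0.679 to 12.4 ± 0.834 TPM (SD, n = 2, fold change -0.53 ± 0.09 on the log2 scale, limma adjusted p = 0.0242). TFE3, CLOCK and USF2 had log2 fold changes of 0.30 ± 0.08, 0.35 ± 0.11 and -0.19 ± 0.08.

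The machinery that the antagonists recruit was called at a share near that of all tested genes, of which 11.8% were called in either direction. Of 15 genes of the SIN3-histone deacetylase corepressor, 1 was higher, 1 lower and 13 not called, that is 6.67% each way, and the median was -0.05. RBBP7, a histone-binding subunit, fell from 432 ± 8.58 to 363 ± 1.03 TPM (SD, n = 2, fold change -0.25 ± 0.04 on the log2 scale, limma adjusted p = 0.0180). ARID4B rose from 59.1 to 72.4 TPM (log2 0.29 ± 0.07), a call lost after GC correction, quantile normalization and median-of-ratios scaling (adjusted p from 0.0502 to 0.0707). SIN3A, the scaffold that MXD proteins bind, stood at 60.6 and 58.3 TPM by group mean. Of 10 genes of the Polycomb complex that holds MGA, 1 was higher, 0 lower and 9 not called. That one was RYBP, an adaptor of the complex, which rose from 44.3 ± 0.955 to 56.9 ± 2.05 TPM (SD, n = 2, fold change 0.35 ± 0.06 on the log2 scale, limma adjusted p = 0.0242). Its partners E2F6 and PCGF6 had log2 fold changes of 0.21 ± 0.07 and 0.17 ± 0.06. Over the 10 genes the median was 0.01, with 5 negative and 5 positive signs, so the genes named do not stand for the list.

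Among 20 listed MYC cofactors 3 fell, 1 rose and 16 had no call. That is 15% lower and 5% higher, where 5.54% of all tested genes were called lower and 6.30% higher. The median was 0.02. RUVBL1, an ATPase of chromatin complexes that MYC recruits, fell from 134 ± 1.52 to 106 ± 0.580 TPM (SD, n = 2, fold change -0.34 ± 0.04 on the log2 scale, limma adjusted p = 0.0145). SMARCB1, a chromatin remodelling subunit that binds MYC, and KAT2A, a histone acetyltransferase, fell by 0.25 and 0.38 on the log2 scale, calls lost after GC correction (adjusted p = 0.0889 and 0.0700). CCNT1, the cyclin of the elongation kinase, rose from 41.4 ± 0.849 to 56.0 ± 1.14 TPM (fold change 0.42 ± 0.06 on the log2 scale, limma adjusted p = 0.0156).

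Among 22 genes that act on MYC protein stability 4 rose, 2 fell and 16 had no call, that is 18.2% higher and 9.09% lower, beside 6.30% and 5.54% of all tested genes. Their median was 0.01. PIM1, a kinase that stabilizes MYC, rose from 10.3 ± 0.502 to 16.0 ± 1.48 TPM (SD, n = 2, fold change 0.59 ± 0.10 on the log2 scale, limma adjusted p = 0.0251). CIP2A, an inhibitor of the phosphatase that destabilizes MYC, rose by 0.25 ± 0.05, a call lost after GC correction (adjusted p = 0.0737). The ubiquitin ligase STUB1 fell by 0.37 on the log2 scale, a call lost after GC correction (adjusted p = 0.0552). FBXW7, the ligase subunit best known for MYC turnover, stood at 21.3 and 24.4 TPM by group mean and was not called.

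Regulators of MYC transcription and messenger RNA had 0 higher, 4 lower and 15 not called of 19, that is 21.1% lower, beside 5.54% of all tested genes. Their median was -0.06. HNRNPD, the AU-rich element binding protein AUF1, fell from 690 ± 7.52 to 577 ± 6.14 TPM (SD, n = 2, fold change -0.26 ± 0.03 on the log2 scale, limma adjusted p = 0.0145). TCF3, an E protein that binds a related E-box, fell from 73.1 ± 5.95 to 52.3 ± 1.07 TPM (fold change -0.47 ± 0.07 on the log2 scale, limma adjusted p = 0.0188). NME2 and E2F4 fell by 0.21 and 0.26, calls lost after GC correction (adjusted p = 0.0940 and 0.0919), and NME2 is close in sequence to NME1, so its value is uncertain.

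Genes that MYC is known to activate had calls mostly downward. Over 3 lists with 81 genes in all, 26 were lower, 3 higher and 52 not called, that is 32.1% lower and 3.70% higher, where 5.54% of all tested genes were called lower and 6.30% higher. The median log2 fold change was -0.14, and 63 of the 81 had a negative sign. These lists were compiled with earlier results of the comparison known, and LDHA, HK2, ENO1 and several nucleolar genes on them had already been seen to be lower, so their direction is not independent evidence.

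The metabolic and translational genes carried most of these calls. Of 36 members 17 fell, 1 rose and 18 had no call, and the median was -0.20. That is 47.2% lower and 2.78% higher, beside 5.54% and 6.30% of all tested genes. After GC correction 14 were called lower. LDHA, the enzyme that makes lactate and a classical MYC target, fell from 805 ± 12.2 to 518 ± 3.97 TPM (SD, n = 2, fold change -0.63 ± 0.03 on the log2 scale, limma adjusted p = 0.00248). SLC19A1, the reduced folate carrier, stood at 14.93 and 15.1 TPM in the Flag libraries and at 8.19 and 8.68 TPM in the libraries labelled RNase H1. It fell by 0.76 on the log2 scale, the largest decrease of the list (SE 0.09, limma adjusted p = 0.0117). PAICS, of purine synthesis, fell from 329 ± 5.32 to 261 ± 5.25 TPM (log2 -0.33 ± 0.04, SE), and PTMA, encoding prothymosin alpha, from 2478 ± 58.1 to 2017 ± 35.7 TPM (log2 -0.30 ± 0.03). TFAM, the mitochondrial DNA packaging factor, was the list's only rise, from 94.6 ± 0.467 to 115 ± 1.83 TPM (fold change 0.28 ± 0.05 on the log2 scale, limma adjusted p = 0.0232). ODC1, the polyamine synthesis enzyme often used as a MYC reporter gene, stood at 241 ± 10.4 and 244 ± 3.76 TPM and was not called, with an interval that holds both directions.

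The nucleolar genes had 7 lower, 0 higher and 23 not called of 30, and 5 lower after GC correction. The share called lower was 23.3%, beside 5.54% of all tested genes. The decreases of the nucleolar genes were smaller, with a median of -0.10, and 26 of the 30 had a negative sign. MYBBP1A, a nucleolar regulator of ribosomal RNA transcription, fell from 62.2 ± 0.792 to 45.8 ± 0.799 TPM (SD, n = 2, fold change -0.43 ± 0.06 on the log2 scale, limma adjusted p = 0.0140). The histone chaperone NPM1 fell from 4849 ± 227 to 3714 ± 286 TPM (log2 -0.39 ± 0.06, SE), PA2G4, a growth regulator of the nucleolus, from 303 ± 10.2 to 255 ± 2.10 TPM (-0.25 ± 0.04) and nucleolin, NCL, by 0.16 on the log2 scale. The call of NCL was lost under quantile normalization (adjusted p = 0.0791). NPM1, PTMA and LDHA have many processed pseudogenes, and reads may be split between copies.

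Of 15 cell-cycle genes 2 rose, 2 fell and 11 had no call, that is 13.3% each way, beside 6.30% of all tested genes called higher and 5.54% lower. The median was -0.04. CDC25A, the phosphatase that starts S phase, rose from 99.1 ± 2.57 to 137 ± 3.03 TPM (SD, n = 2, fold change 0.46 ± 0.05 on the log2 scale, limma adjusted p = 0.00990), and E2F2 from 14.4 ± 0.877 to 20.2 ± 0.0354 TPM (0.46 ± 0.08). ID2, an inhibitor of helix-loop-helix factors, fell from 218 ± 3.61 to 174 ± 8.22 TPM (fold change -0.33 ± 0.05 on the log2 scale, limma adjusted p = 0.0188) and CDCA7 from 70.6 to 59.4 TPM (-0.24 ± 0.05). CDK4, the G1 kinase, stood at 175 ± 8.24 and 164 ± 5.23 TPM and was not called.

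Genes that MYC is known to repress had calls upward only. Of 18 listed, 16 were tested, and 5 rose, 0 fell and 11 had no call, that is 31.3% higher, where 6.30% of all tested genes were called higher. The median was 0.17. CLU, the secreted chaperone clusterin, stood at 83.92 and 98.99 TPM in the Flag libraries and at 167.04 and 147.79 TPM in the libraries labelled RNase H1, and rose by 0.78 ± 0.09 on the log2 scale (SE, limma adjusted p = 0.0122). DDIT3, a stress-induced bZIP factor, rose from 36.5 ± 0.735 to 63.4 ± 4.07 TPM (log2 0.78 ± 0.07), GADD45A, a growth arrest gene, from 56.2 ± 0.665 to 89.1 ± 0.226 TPM (0.65 ± 0.05) and CDKN1A, the cyclin-dependent kinase inhibitor p21, from 34.7 ± 0.983 to 52.2 ± 1.57 TPM (0.58 ± 0.06, limma adjusted p = 0.00990). The last 3 also answer to other stress regulators and were already known to be higher here. CDKN1B, the inhibitor p27, rose by 0.28 ± 0.07 (limma adjusted p = 0.0473), a call lost after GC correction, quantile normalization and median-of-ratios scaling (adjusted p = 0.0551, 0.0637 and 0.0544).

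**Figure D4:**
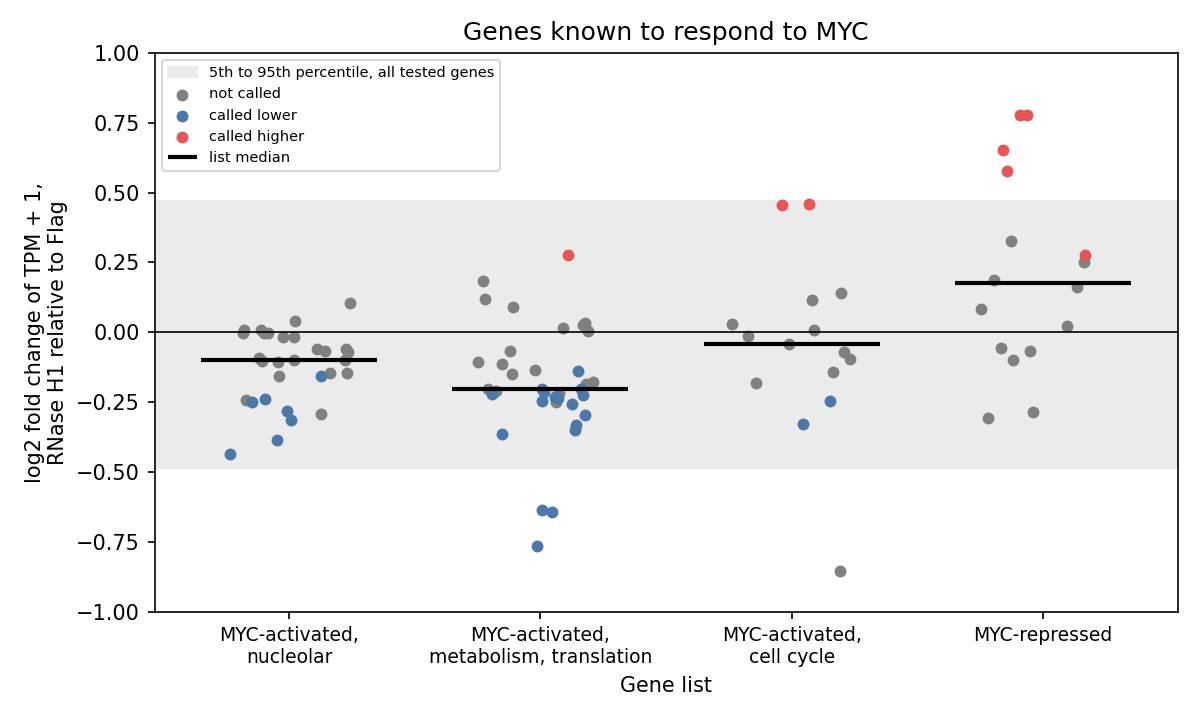
Log2 fold change of TPM + 1 for each tested gene of the 4 lists of genes known to respond to MYC; each point is a gene, colour gives its call, the black bar is the list median and the grey band spans the 5th to the 95th percentile of all tested genes. The list medians are -0.10, -0.20, -0.04 and 0.17, with most points inside the band.

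The E-box letters were looked up in RefSeq promoter windows on GRCh38.p14, which run from 250 bases before to 50 after each annotated start. CACGTG reads the same on both strands, so one search covers both. Of the 10 members 9, all but MYC, had at least 1 window, and 2 of those 9 held the motif, MNT and MXD4. Over all tested genes with a window, 1382 of 11140 held it (12.4%). The sites of both antagonists, and for comparison those of LDHA, which fell, and of CDK4, which was not called, are printed below with up to 12 bases on each side and the E-box in capitals.
MNT (chr17:2401236-2401265, minus strand): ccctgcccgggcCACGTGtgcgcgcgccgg
MXD4 (chr4:2262330-2262359, minus strand): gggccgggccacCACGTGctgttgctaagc
LDHA, upstream site (chr11:18394366-18394395, plus strand): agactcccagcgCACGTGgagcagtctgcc
LDHA, downstream site (chr11:18394464-18394493, plus strand): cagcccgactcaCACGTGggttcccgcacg
CDK4, distal site (chr12:57752509-57752538, minus strand): atgtcaagcggtCACGTGtgatagcaacag
CDK4, middle site (chr12:57752489-57752518, minus strand): atagcaacagatCACGTGgctgccatcgcc
CDK4, proximal site (chr12:57752394-57752423, minus strand): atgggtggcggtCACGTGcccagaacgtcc

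The first E-box base lay 193 bases before the start of MNT, 238 before that of MXD4, 185 and 87 before that of LDHA, and 216, 196 and 101 before that of CDK4. Of these 4 genes MNT, LDHA and CDK4 stood lower without overlap and MXD4 overlapped between groups, where 29.4% of all tested genes were lower without overlap. By call, LDHA was lower and MNT, MXD4 and CDK4 were not called. Among the 3 lists of genes that MYC activates, 35 of 69 genes with a window held the motif (50.7%). By call these were 11 of the 24 that were lower, 0 of the 3 that were higher and 24 of the 42 that were not called. Of the genes that MYC represses, 0 of 9 held it. Over all tested genes it was held by 15.5% of those called lower, 12.8% of those called higher and 12.2% of those not called. A match says only that these letters stand in the window, and binding was not measured here.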

How the data were processed

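The authors deposited a table of TPM values with 1 column per library (2 labelled Flag, 2 labelled RNase H1), from HEK293T RNA extracted with TRIzol and made into mRNA-seq libraries, per the labels' protocols. STAR and hg38 are named in the submitters' processing notes. Program versions, the quantification step, the annotation and the handling of strand are details not given in the sources used here. Values were taken as log2(TPM + 1) for genes averaging 1 TPM or more over the 4 libraries and fitted with limma 3.58.1 in R 4.3.3 (group term, intensity trend, two-sided, Benjamini-Hochberg over 15651 genes). The fit was tested on simulated data, but no result of that run is given here, so it is no support for the calls. Members, gene lists and tests were chosen with earlier results of these data known. Named genes were the 10 members, RNASEH1, up to 4 genes of smallest p per list, a list's only call in a direction, and the 5 genes nearest to MYC; others, such as FBXW7, ODC1, CDK4, SIN3A, MLXIP and CDKN1B, were named after their values were seen. One gene that the rule includes is not reported here. All 246 listed symbols were found, 2 by a synonym (PHB, ARNTL). Gene models and GC content came from GENCODE release 29 (GRCh38). Alternatives were pseudocounts of 0.1 and 5, no filter, a minimum of 5 TPM, quantile and median-of-ratios scaling, no intensity trend, the replicate block, a GC spline with 4 degrees of freedom, and leaving out each library. Figures used matplotlib 3.10.9.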

Additional observations from a re-analysis of the deposited data

How the results depend on the processing

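The members kept their direction in all alternatives run, except MXD4, which was positive in 2 of 13, and MYC ranged from -1.39 to -1.24. The filters, the intensity trend and the replicate block do not alter a log2 fold change, so those alternatives could not change a direction. The activator to antagonist log2 difference of -1.09, which mostly restates that of MYC, was -1.10 under quantile normalization. Median-of-ratios scaling cannot change a ratio taken within a library. When each library was left out in turn, the difference lay between -1.16 and -1.02. With n = 2 such a shift is always smaller than the SD, so its size says little. Calls rested on the 4 libraries and on the variance model. With no filter on low values the counts were 0 over all genes (5655 genes at an unadjusted p under 0.05) and 0 in each list and among the members. With variances without an intensity trend they were 1 over all genes (4337 unadjusted) and 0 in each list and among the members. Without 1 library in turn, where the lone sample of an arm is assumed to vary like the other arm, all-gene calls ranged from 0 to 15 against 1853, members called lower from 0 to 1 against 2, and the lower and higher calls of the nucleolar, metabolic, cell-cycle, MYC-repressed and other lists were 0 throughout, with 3367 to 4035 genes at an unadjusted p under 0.05. The cause was not tested. Of the 53 list genes called, 37 kept the call after GC correction, 47 under quantile normalization and 51 under median-of-ratios scaling. A minimum of 5 TPM and the GC correction each gave 2 metabolic genes called higher against 1, and the minimum of 5 TPM gave 1 MYC-repressed gene called lower against 0. With the replicate block, calls were 2442 over all genes, 9 lower nucleolar genes, 17 lower metabolic genes and 5 higher MYC-repressed genes. Deviations of same-numbered libraries correlated at 0.03 over genes, so the numbers were not taken to pair the libraries. Depth is unknown from TPM, and MYCN, near 1 to 2 TPM, is the least certain member.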

Other observations

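Rows that carry a member's name, overlap a member or lie beside one ranged widely in level. PVT1, the long noncoding RNA gene beside MYC on chromosome 8, was listed at 20.58 and 24.85 TPM in the Flag libraries and at 16.44 and 16.65 TPM in the libraries labelled RNase H1. Its groups did not overlap, its log2 fold change was -0.43 ± 0.10 (SE), and it was not called (limma adjusted p = 0.0510). MYCL-AS1, antisense to MYCL, was listed at 0.52 and 0.86 TPM against 0.15 and 0.17 TPM, below the filter. MYCNOS, antisense to MYCN, reached at most 0.15 TPM, and MYCNUT was listed at 0 in all 4 libraries. MYCBP, which encodes a MYC-binding protein, overlapped between groups at 58.06 and 58.13 against 48.91 and 58.76 TPM. MYCBP2, a large ubiquitin ligase described as a MYC-binding protein, stood at 54.63 and 57.16 against 47.83 and 47.11 TPM. Its groups did not overlap, its log2 fold change was -0.23 ± 0.06 (SE), and it was not called. These rows were chosen after their values were seen.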
